A study of Homo sapiens with 4 samples.

Results

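PAK5, MACROD2, SNAP25, SYNDIG1, RAD21L1, JAG1, RASSF2 and ISM1 are 8 protein-coding genes of human chromosome 20 whose nascent RNA was higher in HCT116 cells lacking type II topoisomerases, on a chromosome where most genes were lower. They are 8 of 60656 features counted and 8 of 358 protein-coding genes of chromosome 20 that had enough reads to be tested. The genes were chosen by name for being higher in this same comparison, so their own fold changes are given as a description with no p-value. The assay was TTchem-seq, which fragments, purifies and sequences the RNA that cells make during a short pulse of 4-thiouridine.

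HCT116 is a colorectal carcinoma cell line, and the 4 libraries form 2 groups of 2. In the group called DKO, both TOP2A alleles carry a mini auxin-inducible degron (mAID), which marks the protein for the proteasome once auxin is present, and TOP2B was knocked out with CRISPR/Cas9. These TOP2A mAID/TOP2B -/- cells received 500 µM auxin (indole-3-acetic acid) for 8 h. The group called WT is labelled wildtype, while the protocol pairs the knockout line with a TOP2A mAID line. Whether the WT libraries carry the degron tag is therefore not settled by the labels, and no auxin is recorded for them. Both groups had first been arrested in G1 by palbociclib, a CDK4 and CDK6 inhibitor (2 µM, 28 h), and were pulsed with 1 mM 4-thiouridine for 30 min. Loss of the enzymes, auxin and any difference between cell clones separate the groups together and cannot be told apart. The question is what G1 transcription looks like when TOP2A and TOP2B, the enzymes that relieve supercoils and tangles by passing one DNA duplex through another, are absent.

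The 8 genes belong to several pathways. SNAP25 and SYNDIG1 are genes of the synapse: SNAP25 encodes a SNARE protein that helps to fuse vesicles with the plasma membrane, and SYNDIG1 encodes a membrane protein of excitatory synapses that associates with AMPA-type glutamate receptors. PAK5 encodes a brain-enriched p21-activated kinase, one of the serine/threonine kinases that act downstream of the small GTPases CDC42 and RAC. JAG1 encodes a ligand of the Notch receptors, which are cleaved on binding so that their intracellular part can switch on genes such as HES1 together with RBPJ and Mastermind coactivators. MACROD2 encodes an enzyme that removes ADP-ribose from proteins and lies in one of the longest genes of the genome. RASSF2 encodes a Ras association domain protein that binds the Hippo pathway kinases STK3 and STK4, RAD21L1 a meiotic form of the cohesin subunit RAD21, and ISM1 the secreted protein isthmin.

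All 8 genes lie on the short arm of chromosome 20, which here means before the widest gap between tested protein-coding genes (hg38, 25696854 to 31514441), a gap that holds the centromere. From one end of the arm to the other, RAD21L1 spans 1226044 to 1255876, RASSF2 4780023 to 4823608, PAK5 9537370 to 9839076, SNAP25 10218830 to 10307418, JAG1 10637684 to 10673999, ISM1 13221274 to 13326723, MACROD2 13995516 to 16053197 and SYNDIG1 24469629 to 24666616. PAK5, SNAP25, JAG1, ISM1 and MACROD2 thus lie in one stretch of the arm, with 7 other tested protein-coding genes among them. Their sizes differ widely. MACROD2 spans 2058 kb and has the longest span of the 358 tested genes, PAK5 spans 302 kb, SYNDIG1 197 kb and ISM1 105 kb. The other members are shorter, with RAD21L1 the shortest at 29.8 kb, and it ranks 185 of 358 by span.

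Promoter sequences, from 250 bases before to 50 after an annotated start, were held by the RefSeq table (GRCh38.p14) for PAK5, MACROD2, JAG1, RAD21L1 and RASSF2. The sequences of 4 of these genes are shown because they include the largest differences and run from no GC box to many. Capitals mark the GC box, GGGCGG, on either strand, and each sequence reads 5′ to 3′ in the direction of the gene.

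PAK5, minus strand, chr20:9839027-9839326: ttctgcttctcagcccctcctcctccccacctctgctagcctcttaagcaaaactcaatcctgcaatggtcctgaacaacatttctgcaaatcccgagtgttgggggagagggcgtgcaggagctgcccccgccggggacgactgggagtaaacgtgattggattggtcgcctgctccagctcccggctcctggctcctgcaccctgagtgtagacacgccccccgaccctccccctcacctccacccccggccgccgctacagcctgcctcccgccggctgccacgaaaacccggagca

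MACROD2, plus strand, chr20:13995266-13995565: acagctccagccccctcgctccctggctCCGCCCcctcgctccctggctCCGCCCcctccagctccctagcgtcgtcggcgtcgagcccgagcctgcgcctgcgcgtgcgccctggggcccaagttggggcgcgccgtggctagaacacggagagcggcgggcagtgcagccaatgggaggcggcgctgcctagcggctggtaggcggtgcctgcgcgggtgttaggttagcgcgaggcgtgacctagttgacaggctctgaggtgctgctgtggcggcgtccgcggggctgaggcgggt

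JAG1, minus strand, chr20:10673950-10674249: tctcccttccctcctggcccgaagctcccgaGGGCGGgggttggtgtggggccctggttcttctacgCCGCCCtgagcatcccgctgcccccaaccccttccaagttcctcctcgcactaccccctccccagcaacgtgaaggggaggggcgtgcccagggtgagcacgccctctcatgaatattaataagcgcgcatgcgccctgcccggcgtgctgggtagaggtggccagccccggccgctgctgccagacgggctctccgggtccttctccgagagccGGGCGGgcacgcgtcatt

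RAD21L1, plus strand, chr20:1225794-1226093: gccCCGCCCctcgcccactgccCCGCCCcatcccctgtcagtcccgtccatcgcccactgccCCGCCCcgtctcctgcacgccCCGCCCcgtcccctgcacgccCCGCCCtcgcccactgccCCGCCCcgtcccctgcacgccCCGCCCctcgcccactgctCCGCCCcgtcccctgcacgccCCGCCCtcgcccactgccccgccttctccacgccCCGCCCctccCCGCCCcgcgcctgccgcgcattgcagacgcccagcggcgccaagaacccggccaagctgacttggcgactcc

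These promoters had little in common. RAD21L1 held 11 GC boxes, in repeated copies, JAG1 held 3 and MACROD2 2, while PAK5 and RASSF2 held none. A GC box stood in 58.5% of 15842 protein-coding promoters of the same length and in 67% of 270 promoters of tested chromosome 20 genes. CpG dinucleotides numbered 36 in RAD21L1, 34 in MACROD2, 24 in JAG1, 17 in PAK5 and 7 in RASSF2, against a median of 22 over all protein-coding promoters. The RASSF2 window lies inside the annotated span of the gene (chr20:4815098-4815397), so it belongs to one of several starts. MACROD2 has a further start within its span (chr20:15196590-15196889) with 1 CpG and a GC content of 43%, against 73.3% at the start shown. The letters GCGTG, the core of the aryl hydrocarbon receptor site, read on both strands, occurred 5 times in RAD21L1, 4 times in JAG1, 2 times in MACROD2 and 2 times in PAK5, and were found in 44.1% of all promoters. CCAAT occurred 2 times in PAK5 and 1 time in MACROD2 (36.4% of all promoters). The E-box CACGTG occurred 1 time in RASSF2 (8.88%). TATAAA (9.63%), TGACTCA of AP-1 (3.66%) and TGGGAA of RBPJ (22.7%) were not in these windows.

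The libraries held between 51142867 and 53777749 counted reads, and the counts of replicates varied beyond sampling noise (chi-square per degree of freedom 4.57 in DKO and 3.98 in WT). No label states that the replicates are separate cultures, so p-values measure only the spread between these libraries, which may be technical. Of 14 intestinal epithelial markers 11 were tested, and the defining marker EPCAM (3883 and 3853 reads in DKO, 3590 and 3677 in WT) was well counted. KRT20 (8 and 7 reads in DKO, 1 and 1 in WT), VIL1 (11 and 8, 4 and 9) and CDX1 (2 and 0, 0 and 0) had too few reads to be tested. The summed level of all 14 was 433 to 447 CPM (the reads of a gene scaled to library size, with TMM factors) in DKO and 474 to 507 CPM in WT. Over all tested protein-coding genes 20.3% were called higher in DKO and 25.2% lower. None of the 11 was called higher and 5 were called lower, but without WT replicate 1 CDH1 alone kept its call. CDX2 was called higher without DKO replicate 2 (log2 fold change 0.28, edgeR adjusted p = 0.0234) and with upper quartile factors (0.22, 0.0273).

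Chromosome 20 as a whole stood apart. In DKO its features took 2.37% and 2.31% of the reads, against 3.43% and 3.45% in WT, and the exact two-sided permutation p for this difference was 0.333, the smallest that 2 against 2 libraries allow. Of its 358 tested protein-coding genes 308 were called lower and 9 higher at an adjusted p under 0.05 in edgeR's quasi-likelihood test (86.0% and 2.51%), where all 13079 tested protein-coding genes gave 25.2% lower and 20.3% higher. In either direction the share called was 88.5% of these genes of the chromosome, 45.5% of all tested protein-coding genes and 40.1% of all tested features. The median log2 fold change of the chromosome was -0.62, and over the 4 pairings of a DKO with a WT library it lay between -0.64 and -0.59. The next lowest chromosome median was -0.13, on chromosome 19. Both arms were low, with medians of -0.61 for the 102 other genes of the short arm and -0.64 for the 248 of the long arm.

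The 9 genes called higher were the 8 members and SLC12A5, a neuronal potassium-chloride cotransporter gene of the long arm (21 and 26 reads in DKO, 8 and 4 in WT). SLC12A5 lost its call without WT replicate 2 (edgeR adjusted p = 0.0694) and without the filter on low counts (0.0503), and DESeq2 gave it no adjusted p. All 8 members were thus called and had groups that did not overlap, against 2.51% called higher on the chromosome, and 19.0% called higher and 33.0% higher without overlap among all 19103 tested features. Since the same contrast chose them, nothing is read from this. In the order of fold changes on the chromosome, PAK5, MACROD2 and SNAP25 took ranks 1 to 3, SYNDIG1 5, RAD21L1 7, JAG1 8, RASSF2 9 and ISM1 12. The genes ranked among them but not in the set were SLC12A5, HNF4A (19 and 34 reads in DKO, 21 and 12 in WT), MAP1LC3A (51 and 44, 40 and 28) and SYCP2 (22 and 26, 18 and 17). The last 3 of these were not called, though HNF4A was without DKO replicate 1 (edgeR adjusted p = 0.0385). Below ISM1, the member with the smallest fold change, came TNNC2 (45 and 55 reads in DKO, 44 and 35 in WT), also not called.

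**Figure D1:**
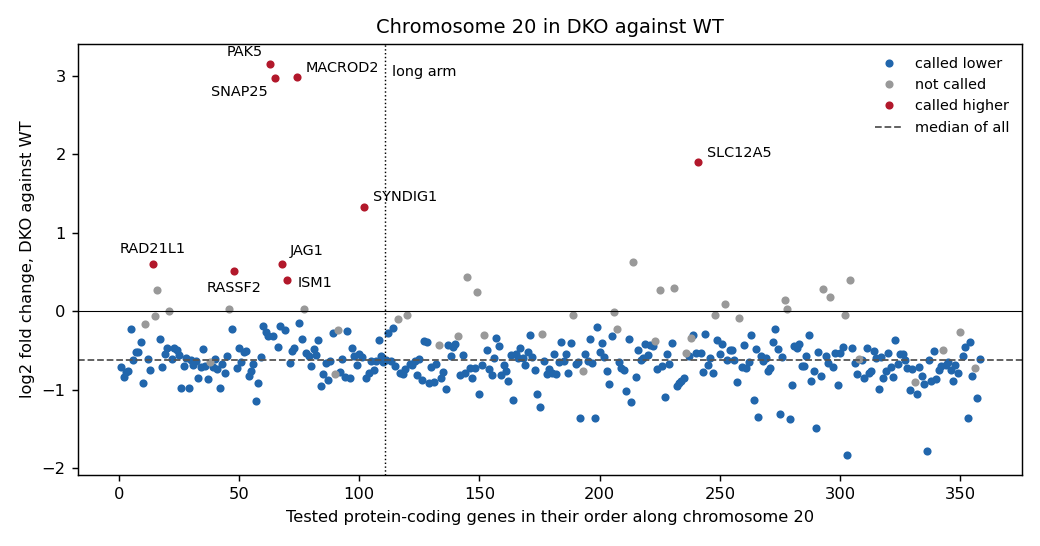
Log2 fold change of DKO against WT (vertical axis) for each of the 358 tested protein-coding genes of chromosome 20, in their order along the chromosome (horizontal axis). Blue points were called lower, red points higher and grey points neither, the dashed line is the median of -0.62 and the dotted line separates the arms. The 8 members and SLC12A5 are named, and all 8 members lie left of the dotted line.

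The synaptic genes are described before the others. SNAP25 stood at 4.06 and 4.93 CPM in DKO (216 and 263 reads) and at 0.579 and 0.568 CPM in WT (30 and 29 reads). Both DKO libraries were far above both WT libraries, and the log2 fold change was 2.97, or 7.81-fold, with 2.73 to 3.04 over the 4 pairings of a DKO with a WT library. SYNDIG1 was barely transcribed in either group, at 0.207 and 0.338 CPM in DKO (11 and 18 reads) and 0.0579 and 0.157 CPM in WT (3 and 8 reads). Its groups did not overlap, but they lay close, and the 4 pairings ranged from 0.33 to 1.97 around a fitted log2 fold change of 1.33. The ratio of summed reads had a 95% interval of 1.23 to 5.65 (exact, Clopper-Pearson), which covers counting error only. In such bulk libraries, more cells that transcribe a gene and more RNA per cell cannot be told apart.

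PAK5, the kinase gene, went from 6 and 3 reads in WT to 43 and 42 in DKO, or from 0.116 and 0.0587 to 0.808 and 0.788 CPM. The DKO libraries were nearly equal and both lay far above the WT libraries, which rested on few reads. The fitted log2 fold change of 3.15 (8.91-fold) was the highest of the chromosome and lay just above the range over pairings (2.42 to 3.13), which are damped by a larger added count, and the ratio of summed reads had a 95% counting interval of 4.59 to 20.6. PAK5 and SYNDIG1 had under 10 reads in both WT libraries, so they could pass the filter on low counts only through the DKO libraries in which they are higher. The other 6 members passed it in either group.

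MACROD2 had the best supported of the large differences. It stood at 55.4 and 58.2 CPM in DKO (2949 and 3105 reads) and at 7.12 and 7.24 CPM in WT (369 and 370 reads). The log2 fold change was 2.98 (7.91-fold), all 4 pairings lay between 2.93 and 3.03, and the counting interval of the ratio was 7.33 to 8.55. Other features annotated within the span of MACROD2 carried almost no reads. FLRT3, a protein-coding gene on the opposite strand, had 1 and 2 reads in DKO and 0 and 1 in WT, MACROD2-AS1 had 1 and 0 in DKO and 2 and 0 in WT, and MACROD2-IT1 had 0 in every library.

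Differences were smaller for the remaining 4 genes. JAG1, the Notch ligand gene, had 50.9 and 52.5 CPM in DKO (2712 and 2802 reads) against 35.7 and 32.3 CPM in WT (1852 and 1651 reads). The groups were well apart, with a log2 fold change of 0.60 (1.52-fold) and pairings from 0.51 to 0.70. RASSF2 had 5.43 and 4.78 CPM in DKO (289 and 255 reads) and 3.80 and 3.35 CPM in WT (197 and 171 reads). Its log2 fold change was 0.51 (1.43-fold, pairings 0.33 to 0.69), and no DKO library was as low as a WT library. ISM1 had 15.2 and 14 CPM in DKO (811 and 746 reads) and 11.2 and 11 CPM in WT (580 and 561 reads), a log2 fold change of 0.40 (1.32-fold, pairings 0.32 to 0.47). RAD21L1 had 1.41 and 1.46 CPM in DKO (75 and 78 reads) and 1.00 and 0.881 CPM in WT (52 and 45 reads). Its log2 fold change of 0.61 matched that of JAG1 in size but rested on far fewer reads, with a counting interval of 1.17 to 1.99 for the ratio against 1.46 to 1.59 for JAG1.

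**Figure D2:**
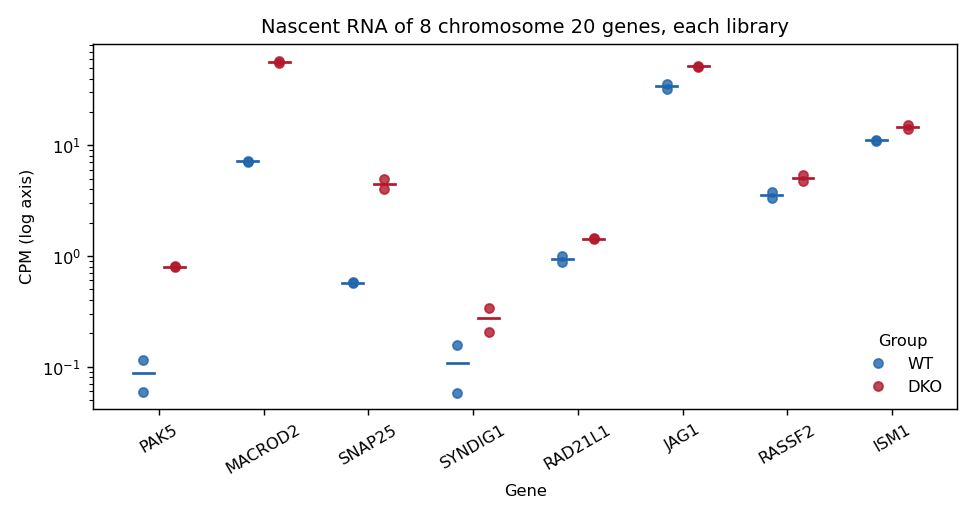
CPM of each of the 8 genes (horizontal axis) on a logarithmic vertical axis, with blue points for the 2 WT and red points for the 2 DKO libraries and a bar at each group mean. The groups of every gene are separate, from MACROD2 at 7.12 to 58.2 CPM to SYNDIG1, whose closest libraries stood at 0.157 and 0.207 CPM.

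By the size of the log2 fold change the genes fell into PAK5, MACROD2 and SNAP25, near 3, and the other 5. The ranges over pairings of PAK5 (2.42 to 3.13), MACROD2 and SNAP25 overlapped, so their order is not resolved. SYNDIG1 overlapped all of the smaller differences, and the ranges of RAD21L1, JAG1 and RASSF2 overlapped each other too. Leaving out a library in turn kept all 8 values above 0. It moved SYNDIG1 most, to 0.79 or 2.19, and PAK5 to 2.76 or 3.71, whereas MACROD2 stayed between 2.95 and 3.02, SNAP25 between 2.82 and 3.10, JAG1 between 0.53 and 0.68, RASSF2 between 0.42 and 0.61, ISM1 between 0.34 and 0.46 and RAD21L1 between 0.51 and 0.70.

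WT levels of several members were low for the chromosome. PAK5 had the lowest WT mean of the 358 tested genes, SYNDIG1 the next, SNAP25 ranked 27 and RAD21L1 44 from the bottom. These are the 4 members with a WT mean under 1 CPM. PAK5 and SYNDIG1 were tested only through their DKO reads, so their places at the bottom follow largely from the filter and the choice of members. Of the 41 other chromosome 20 genes under that level 12 were called lower and 1, SLC12A5, higher (a call lost without WT replicate 2, as above), with a median log2 fold change of -0.43. SLC12A5, with 8 and 4 reads in WT, likewise passed the filter only through DKO. Of the 309 other genes at 1 CPM or more 296 were called lower and none higher (median -0.63). On the other chromosomes, genes under 1 CPM in WT had 326 of 1581 called higher and 90 lower, in a class that the filter on low counts favours when DKO is the higher group. MACROD2, JAG1, RASSF2 and ISM1 had WT means of 3.57 to 34 CPM.

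Span was described in the same way. The 54 other genes of at least 100 kb had a median log2 fold change of -0.55, with 45 called lower and none higher. The 296 shorter ones had a somewhat lower median of -0.64, with 263 called lower and 1 higher. PAK5, MACROD2, SYNDIG1 and ISM1 span at least 100 kb, and the part of span in the members' values was not tested. The next longest tested genes after MACROD2 were PTPRT (1158 kb, 14 and 21 reads in DKO, 17 and 17 in WT), PLCB1 (753 kb), CDH4 (688 kb) and TASP1 (534 kb). PLCB1 was called lower at -0.27 ± 0.05 (SE) and TASP1 at -0.66 ± 0.05, while PTPRT (-0.01) and CDH4 (-0.61) were not called. Without WT replicate 1 or WT replicate 2, PLCB1 missed the threshold (edgeR adjusted p = 0.0678 and 0.102). PAK5 had nearly the span of KIF16B, 301 kb, a kinesin gene called lower at -0.15 ± 0.05.

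Each gene was then set against its 3 nearest tested protein-coding genes on either side, with the other members left out. These flanks make up 31 different genes, chosen by position except that members were left out. The members are all 8 short-arm genes called higher, so none of the flanks could be called higher. As the members were chosen for being higher, an excess over the flank median follows largely from that choice and is given as a description. Of the 31 flanks 26 were called lower and 5 were not called (86.0% called lower on the chromosome). Their median log2 fold change was -0.46, with a range from -0.85 to 0.27. Without WT replicate 1 the number called lower was 19, and without WT replicate 2 it was 22.

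PAK5 lies between PLCB4 and ANKEF1, and all 6 of its flanks were called lower. PLCB4, a phospholipase C gene 56.6 kb away, stood at 161 and 163 CPM in DKO and 204 and 199 CPM in WT (log2 fold change -0.31 ± 0.05 (SE), edgeR adjusted p = 3.09e-09). ANKEF1, 196 kb away on the other side, was at -0.32 ± 0.06. The flank median was -0.29, so that PAK5 exceeded it by 3.45 on the log2 scale.

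SNAP25 shares most of these flanks, and all 6 were called lower. MKKS, a chaperonin-like gene 93.6 kb away, fell from 30.3 and 30.6 CPM in WT to 22.5 and 21.9 CPM in DKO, a log2 fold change of -0.46 ± 0.06. SLX4IP, whose product binds the nuclease scaffold SLX4, was at -0.20 ± 0.05, and its call was lost without WT replicate 1 or WT replicate 2 (edgeR adjusted p = 0.101 and 0.0802). SNAP25 exceeded its flank median of -0.29 by 3.26. SNAP25-AS1, a long non-coding RNA whose span overlaps the low-coordinate end of SNAP25, was also called higher. It had 27 and 28 reads in DKO and 12 and 14 in WT (log2 fold change 1.02 ± 0.34, edgeR adjusted p = 0.0111). The call was lost with any 1 of the 4 libraries left out (edgeR adjusted p of 0.0514 to 0.134) and with the DESeq2 Wald test (adjusted p = 0.171). By their RefSeq positions the pair shares only 10218830 to 10219506. The strand setting of the counting is not given in the sources used here, so reads within that shared stretch cannot be told apart.

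JAG1 lies 9.65 kb from SLX4IP and 1217 kb from BTBD3 on its other side, and all 6 of its flanks were called lower. BTBD3, a BTB domain gene, was at -0.24 ± 0.05, with its call lost without WT replicate 1 (edgeR adjusted p = 0.11). JAG1 exceeded the flank median of -0.39 by 0.99. Thus a gene higher in DKO and one lower in DKO stood less than 10 kb apart.

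ISM1 lies within the span of TASP1, a protease gene that was counted far more often, at 426 and 426 CPM in DKO and 656 and 689 CPM in WT. TASP1 was at -0.66 ± 0.05 (edgeR adjusted p = 1.81e-26). As the strand setting is not given, reads of ISM1 and TASP1 may not be separable over the whole span of ISM1. ISM1-AS1, a non-coding RNA within ISM1, also lies within TASP1 on the same strand, so its reads and those of TASP1 may not be separable. ISM1-AS1 had 18 and 27 reads in DKO and 44 and 42 in WT (-0.98 ± 0.28, edgeR adjusted p = 0.00216). It lost that call without DKO replicate 1 (edgeR adjusted p = 0.0821), WT replicate 1 (0.129) or WT replicate 2 (0.0917), and the DESeq2 Wald test did not call it (adjusted p = 0.0925). All 6 flanks of ISM1 were called lower, and ISM1 exceeded their median of -0.46 by 0.86.

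Of the 6 flanks of MACROD2, 5 were called lower. ESF1 and NDUFAF5, a nucleolar protein gene and an assembly factor gene of respiratory complex I, were at -0.50 ± 0.05 and -0.47 ± 0.05. KIF16B, 219 kb beyond the far end, was at -0.15 ± 0.05 and was not called without WT replicate 1 or WT replicate 2 (edgeR adjusted p = 0.116 and 0.151). BFSP1, a lens filament gene, was not called (25 CPM in DKO and 24.5 in WT on average, edgeR adjusted p = 0.736). MACROD2 exceeded the flank median of -0.41 by 3.40. Over the whole stretch from PAK5 to MACROD2, 12 tested genes comprised the 5 members and 7 others, all 7 called lower with a median of -0.46.

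SYNDIG1, nearest of the set to the centromere, had all 6 flanks called lower. Among them NAPB, which encodes a protein that takes SNARE complexes such as those of SNAP25 apart, went from 98.6 and 104 to 70.1 and 68.3 CPM (-0.55 ± 0.05). APMAP, 296 kb away, had the lowest log2 fold change of all flanks (-0.85 ± 0.05). SYNDIG1 exceeded the flank median of -0.66 by 1.99.

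RASSF2 had 5 of 6 flanks called lower. PRNP, the prion protein gene 78.4 kb away, was at -0.23 ± 0.05 (not called without WT replicate 1, edgeR adjusted p = 0.0709). The vitamin C transporter gene SLC23A2, 28.8 kb away on the other side, was at -0.72 ± 0.05. ADRA1D, with 6 to 11 reads per library, was not called. RASSF2 exceeded the flank median of -0.52 by 1.03.

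RAD21L1 had the least uniform surroundings, with 3 of 6 flanks called lower. PSMF1, a proteasome inhibitor gene 53.8 kb away, was at -0.61 ± 0.05 and TMEM74B, 36.6 kb away, at -0.75 ± 0.14. SNPH, 10.4 kb away, which encodes the axonal protein syntaphilin, was not called at 4.81 and 5.96 CPM in DKO and 5.77 and 5.48 CPM in WT (-0.06 ± 0.11). RSPO4 and SDCBP2 were not called either, at -0.17 and 0.27 on few reads. NSFL1C, at -0.36 ± 0.05, missed the threshold without WT replicate 1 (edgeR adjusted p = 0.0622). RAD21L1 exceeded the flank median of -0.26 by 0.87, nearly the same excess as that of ISM1, and by 1.07 with 5 genes on each side.

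**Figure D3:**
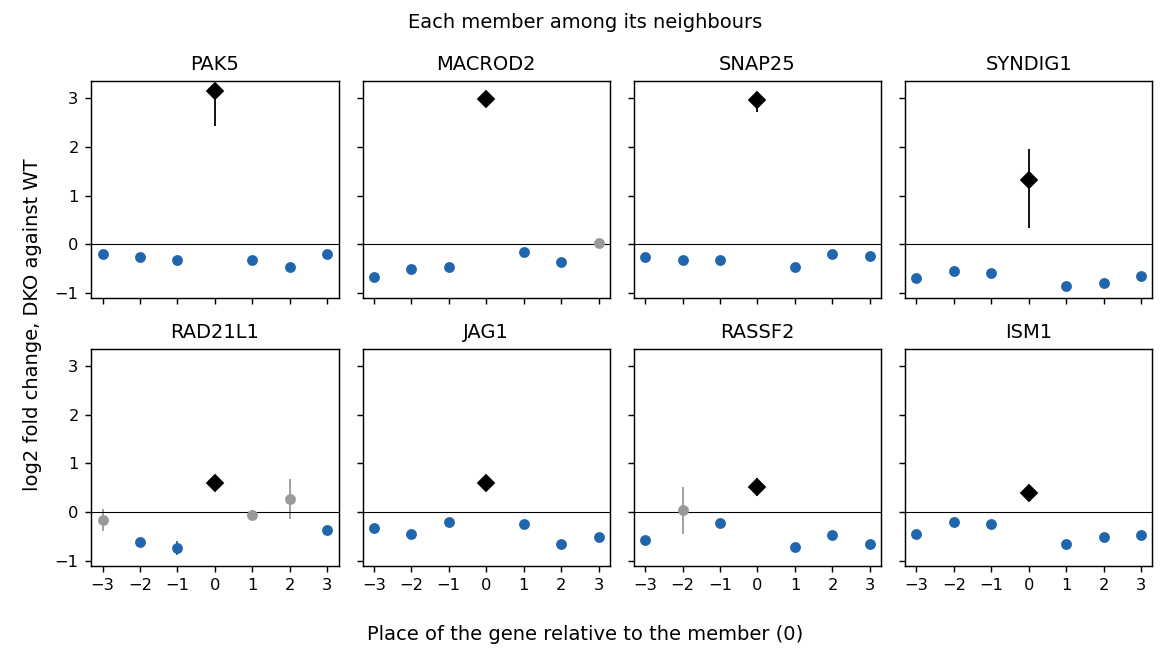
Log2 fold change of DKO against WT (vertical axis) for each member at place 0 and its 3 nearest tested protein-coding genes on each side (horizontal axis, members left out). Black diamonds are members with a bar for the range over the 4 pairings of libraries. Circles are flanks with their standard error, blue where called lower and grey where not called. Every diamond lies above its 6 circles, which follows largely from the choice of members as genes higher in DKO.

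Genes of the same pathway as each member were examined from lists that hold other genes as well, with 34 other Notch genes tested for JAG1. Of these 7 were called higher, 10 lower and 17 neither, with a median log2 fold change of -0.06 (20.3% of protein-coding genes were called higher and 25.2% lower). Of 4 tested target genes, 1 rose, 2 were called lower and 1 was not called. HES1, a transcriptional repressor, rose from 1.77 and 1.86 CPM in WT to 5.37 and 5.08 CPM in DKO (log2 fold change 1.52 ± 0.14 (SE), edgeR adjusted p = 1.75e-21). HES4, a related repressor gene, was called lower at -0.51 ± 0.19 and NRARP, a feedback inhibitor of the pathway, at -0.27 ± 0.11. HES4 lost its call with any 1 library left out (edgeR adjusted p of 0.0651 to 0.126), and NRARP without DKO replicate 2, WT replicate 1 or WT replicate 2 (0.124 to 0.2) and with upper quartile factors (0.0667). HEYL was not called (8.30 and 7.29 CPM in DKO, 8.93 and 8.87 in WT), but it was called lower without DKO replicate 1 (0.0399). The Mastermind coactivator genes MAML2 (1.72 ± 0.06) and MAML3 (1.68 ± 0.05) rose too. The genes that fell most were POFUT1 (-0.64 ± 0.05), RFNG (-0.64 ± 0.16) and LFNG (-0.62 ± 0.10), of sugar transferases that modify Notch receptors. Other sugar transferase genes of the list, POGLUT1 (-0.08) and MFNG (0.31, 32 and 41 reads in DKO, 28 and 29 in WT), were not called. POFUT1 is on the long arm of chromosome 20, whose median was -0.64. RFNG missed the threshold without WT replicate 1 (edgeR adjusted p = 0.151) or WT replicate 2 (0.0678).

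Among 27 other tested genes of the vesicle release machinery around SNAP25, 5 rose and 12 fell, with a median of -0.11. Over all tested protein-coding genes 20.3% were called higher and 25.2% lower. SYT1, the calcium sensor of vesicle release, rose from 131 and 135 to 513 and 586 CPM (2.05 ± 0.05, edgeR adjusted p = 1.41e-92). STXBP3, a syntaxin binding protein gene, was at 0.30 ± 0.05, and RIMS2 at 0.26 ± 0.09. UNC13D, a priming factor of granule release, fell from 4.86 and 3.80 to 0.939 and 1.09 CPM (-2.09 ± 0.16). RIMS1 (-1.20 ± 0.48, 6 and 6 reads in DKO, 13 and 14 in WT) and CPLX2 (-0.85 ± 0.25) followed. RIMS1 lost its call with any 1 library left out (edgeR adjusted p of 0.115 to 0.171), RIMS2 without DKO replicate 2 (0.145), WT replicate 1 (0.192) or WT replicate 2 (0.11), and CPLX2 without WT replicate 1 (0.0666) or WT replicate 2 (0.0949).

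SNAP25 and SYT1 are also neuronal markers, and of the other markers of that list few were transcribed. NEFL and NEFM had no reads in any library. The 11 markers other than SNAP25 and SYT1 summed to 6.21 to 6.48 CPM in DKO and 5.40 to 6.58 CPM in WT, ranges that overlap, and none of the 3 tested was called. Of 8 neuroendocrine markers 2 were tested and none was called, with a summed level of 2.06 to 2.12 CPM in DKO and 2.26 to 2.35 CPM in WT. Mesenchymal markers had 4 of 6 tested members called higher and none lower (20.3% of protein-coding genes were called higher). The list summed to 105 to 113 CPM in DKO and 56.8 to 57.8 CPM in WT. Most of this was ZEB1, at 91.5 and 100 CPM in DKO and 50.1 and 51.0 CPM in WT. VIM (10 and 10 reads in DKO, 4 and 0 in WT), ZEB2, COL3A1 and PDGFRB had too few reads to be tested, and COL1A2 was at 0. TWIST1 and ZEB1 kept their calls with any 1 library left out, whereas SNAI2 and ACTA2 lost theirs without DKO replicate 1, WT replicate 1 or WT replicate 2 (edgeR adjusted p of 0.0681 to 0.262). Endothelial markers had none of 3 called. The single tested immune marker, CSF1R, was called lower, but not without WT replicate 1 (0.0597) or WT replicate 2 (0.0889). The part of any of these cell identities in the values of the 8 genes was not tested.

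Around PAK5, 14 other kinase and GTPase genes were tested, of which 2 rose and 8 fell (median -0.17). Among all protein-coding genes tested, 20.3% were called higher and 25.2% lower. ARHGEF6, an exchange factor that binds PAK kinases, rose by a log2 of 0.82 ± 0.12 and CDC42 by 0.14 ± 0.05. RAC3 fell by 0.50 (SE 0.11), the kinase gene PAK6, the closest relative of PAK5 together with PAK4, by 0.48 (SE 0.09) and the PAK substrate gene LIMK1 by 0.39 (SE 0.06) on the log2 scale. PAK4 did not pass the test (63.6 CPM in DKO and 63.7 in WT on average). RAC3 was not called without WT replicate 1 (edgeR adjusted p = 0.0804) and CDC42 without WT replicate 1 or WT replicate 2 (0.187 and 0.101).

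Among 22 other ADP-ribosylation genes beside MACROD2, 10 rose and 3 fell (median 0.11). The shares over all tested protein-coding genes were 20.3% higher and 25.2% lower. TIPARP, an ADP-ribosyltransferase that restrains the aryl hydrocarbon receptor, rose most (1.42 ± 0.05), ahead of PARP8 (0.53 ± 0.05) and PARP14 (0.31 ± 0.06). The genes that fell were ADPRS (-0.43 ± 0.09) and MACROD1 (-0.15 ± 0.05), which encode enzymes that remove ADP-ribose, and HPF1 (-0.34 ± 0.06), a cofactor of PARP1. Other hydrolase genes of the list did not fall, as OARD1 (0.29 ± 0.07) and PARG (0.12 ± 0.05) were called higher and ADPRH (-0.02) was not called. MACROD1, the closest relative of MACROD2, lost its call without DKO replicate 1, WT replicate 1 or WT replicate 2 (edgeR adjusted p of 0.0905 to 0.161) and with upper quartile factors (0.0675), and ADPRS without WT replicate 1 (0.0757).

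The cohesin list held 8 other tested genes for RAD21L1, of which RAD21 (0.30 ± 0.05) and STAG2 (0.12 ± 0.05) were called higher and none lower (median 0.20). Shares over all tested protein-coding genes were 20.3% higher and 25.2% lower. STAG2 was not called without DKO replicate 2, WT replicate 1 or WT replicate 2 (log2 fold changes 0.06, 0.07 and 0.17). The other meiotic members did not pass the test. REC8 had 70 and 76 reads in DKO and 59 and 57 in WT, SMC1B 17 and 27 against 19 and 13, and STAG3 16 and 19 against 18 and 10.

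In the RASSF and Hippo kinase list, 4 of 14 other tested genes rose and 3 fell (median 0.04). Across all tested protein-coding genes 20.3% were called higher and 25.2% lower. RASSF8 (0.80 ± 0.05), SAV1, the scaffold of the Hippo kinases (0.44 ± 0.05), and RASSF6 (0.44 ± 0.12) rose most. RASSF7 (-0.52 ± 0.14), STK4 (-0.44 ± 0.05), a partner of RASSF2 encoded on chromosome 20, and RASSF1 (-0.25 ± 0.06) fell. STK3, the other partner kinase gene, was called higher (0.13 ± 0.05). RASSF6 lost its call without DKO replicate 2, WT replicate 1 or WT replicate 2 (edgeR adjusted p of 0.069 to 0.152), RASSF7 without WT replicate 1 (0.137) or WT replicate 2 (0.0645), and RASSF1 without WT replicate 1 (0.0798).

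The AMPA receptor list beside SYNDIG1 had 8 other tested genes, with a median of -0.07, none of which rose, while CNIH3 (-0.32 ± 0.06), an auxiliary subunit gene, and the scaffold gene DLG4 (-0.24 ± 0.09) fell. DLG4 lost its call without DKO replicate 1, WT replicate 1 or WT replicate 2 (edgeR adjusted p of 0.0825 to 0.268). Most of this list was at very low levels. For ISM1, 4 other genes were tested, of which 2 rose and none fell (median 0.32). Both lists stand against shares of 20.3% higher and 25.2% lower over all tested protein-coding genes. The integrin genes ITGAV (0.48 ± 0.05) and ITGB5 (0.22 ± 0.05), whose products form a reported receptor of isthmin, rose, while ISM2 (0.43, 37 and 30 reads in DKO, 25 and 23 in WT) and HSPA5 (0.07) did not pass the test. HSPA5 was called higher once DKO replicate 2 was left out (0.20, edgeR adjusted p = 0.000424). ITGB5 was not called without WT replicate 1 or WT replicate 2 (edgeR adjusted p = 0.0891 and 0.0737).

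**Figure D4:**
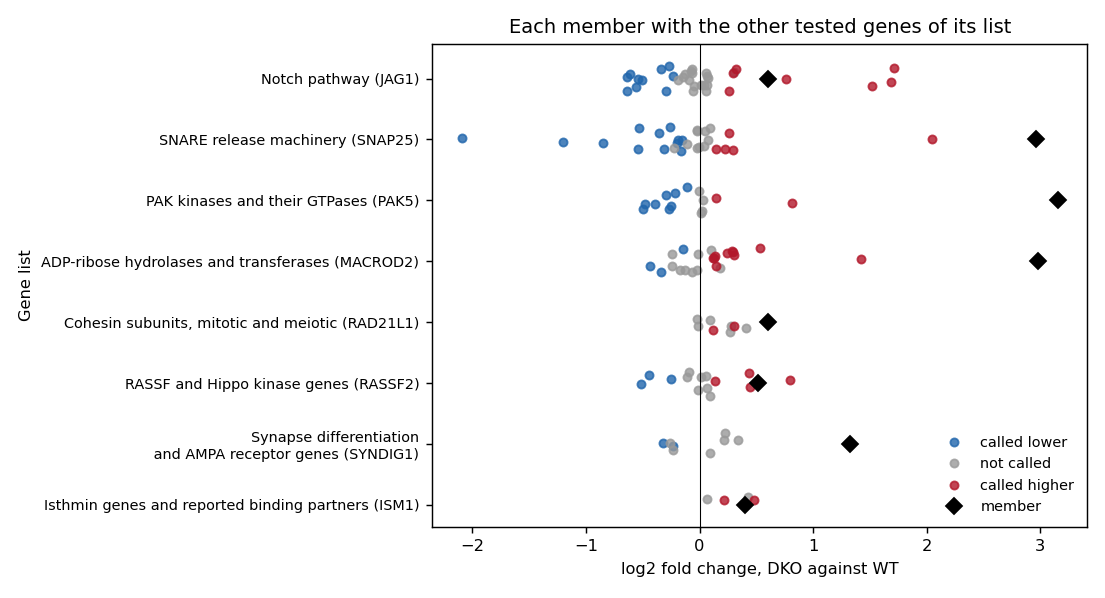
Log2 fold change of DKO against WT (horizontal axis) for the tested genes of the 8 lists (vertical axis). Black diamonds are the members, blue circles genes called lower, red circles genes called higher and grey circles genes not called, with vertical scatter for legibility. MACROD2, PAK5, SNAP25, SYNDIG1 and RAD21L1 lie at the right end of their lists, whereas JAG1, RASSF2 and ISM1 lie among other genes of theirs. The members were chosen as genes higher in DKO, so places far to the right follow largely from that choice.

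Genes elsewhere with the most similar profile over the 4 libraries were sought among 10904 tested protein-coding candidates whose mean log2 CPM was 1 or more, by the root mean square distance between values centred on each gene's mean. For MACROD2 this was GRIN2B on chromosome 12, a glutamate receptor subunit gene, at 536 and 575 CPM in DKO and 75.5 and 75.2 CPM in WT (distance 0.0502). For SNAP25 it was the drug efflux transporter gene ABCB1 on chromosome 7 (0.0538) and for PAK5 the ephrin gene EFNA5 on chromosome 5 (0.182). JAG1 was nearest to GDA (0.0144), RAD21L1 to GRHL1 (0.0074), ISM1 to MEX3C (0.0171), RASSF2 to ACTA2 (0.0254) and SYNDIG1 to MOB3B (0.289). With 4 libraries in 2 groups, these distances mostly compare the size of 1 difference.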

How the data were processed

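For each library the authors deposited a headerless list of Ensembl gene IDs with unnormalized counts. The submitters' processing notes name STAR 2.7.3a, featureCounts 1.6 and the build hg38. Which gene set, strand setting and gene parts were counted is not given in the sources used here. Levels were scaled within each library without a spike-in, and a change common to all genes would not show.

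Symbols were found for 42020 of 60656 IDs. Positions in RefSeq (GRCh38.p14, the hg38 build) were found for 40210, by current symbol or, where that was absent, by an older one. DKO was compared with WT with edgeR 4.0.16 (quasi-likelihood F-test, R 4.3.3), over all features passing filterByExpr (minimum count 10, minimum total 15), with TMM factors of 0.9923 to 1.0052 and Benjamini-Hochberg adjustment over 19103 features. Standard errors are the absolute log2 fold change over the square root of F. Pairings of libraries used log2 CPM with a prior count of 2. On simulated data for DKO against WT over 19103 genes, 58% of 50 genes changed 1.25-fold (all above a mean CPM of 1), 94% at 1.5-fold and 100% at 2-fold were recovered, with 3 false calls. Every simulated gene had the same dispersion, so these figures do not carry over to genes with few reads, such as PAK5 and SYNDIG1.

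The members and lists were chosen with earlier results of these data known. Named genes were all members, their 3 tested protein-coding neighbours on each side, tested features overlapping a member, up to 3 called genes per direction of each list, the gene of most similar profile, and the 5 highest and 5 lowest other chromosome 20 genes whose mean log2 CPM reached 1. The 5 lowest are not described. PTPRT, CDH4, SLC12A5, HES4, NRARP, OARD1, PARG, STK3 and genes given as not called were named after their values were seen. For OARD1, PARG and STK3 no results of the alternative runs are given. Alternatives were other normalizations, filters and tools (DESeq2 1.42.0, limma 3.58.1 voom), a replicate block, each library left out, and other flank definitions. Figures were drawn with matplotlib 3.10.9.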

Additional observations from a re-analysis of the deposited data

How the results depend on the processing

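No called result changed direction under any alternative run, and every member tested stayed higher in DKO, while some genes given as not called, such as SNPH and BFSP1, changed sign with a library left out. At least 50 reads in 2 libraries removed PAK5 and SYNDIG1. RAD21L1 missed the threshold with the DESeq2 Wald test, which gave SYNDIG1 no adjusted p, and both missed it in edgeR without a count filter and without DKO replicate 2. RASSF2 also missed it without a count filter, and RAD21L1, SYNDIG1, RASSF2 and ISM1 did without WT replicate 1 or WT replicate 2. Without a filter beyond 1 read, 1640 features were called higher and 1655 lower in the series, 5 chromosome 20 genes higher, and 21 list genes higher and 19 lower. The DESeq2 Wald test called 2524 features and 25 list genes lower. Among named features, TMX4, RIMS2, MACROD1, STAG2, RASSF7, DLG4, HES4, NRARP, SNAP25-AS1, ISM1-AS1, LINC01722, LINC01524, ANKRD20A21P, ACTA2 and CLDN7 missed the threshold under each of these 2 settings. PLCB1, KIF16B, BTBD3, RFNG, RIMS1, CDC42, RASSF6, SLC12A5, KRT8, KRT18, ELF3, SNAI2 and CSF1R missed it without the filter and CPLX2 with DESeq2, which gave SLC12A5 no adjusted p. With a library left out, calls in the series numbered 1023 to 3127 higher and 928 to 3443 lower, on chromosome 20 4 to 11 higher, and in the lists 17 to 32 higher and 11 to 35 lower. A lone library is then assumed to vary like the other group. The chromosome 20 median was -0.58 with upper quartile factors. Log2 fold changes with a library left out ranged from 2.76 to 3.71 for PAK5, 2.82 to 3.10 for SNAP25, 0.79 to 2.19 for SYNDIG1 and 0.51 to 0.70 for RAD21L1. The excess over the flanks then ranged from 3.01 to 4.02 for PAK5, 3.34 to 3.46 for MACROD2, 1.44 to 2.86 for SYNDIG1, 0.86 to 1.01 for RAD21L1 and 0.90 to 1.08 for JAG1. With all genes within 1 Mb as flanks it was 3.45 for MACROD2, 1.18 for RAD21L1 and 1.16 for RASSF2, and with 5 genes on each side 1.07 for RAD21L1 and 0.74 for ISM1. The cause of these shifts was not tested. Replicate numbers did not pair the libraries (correlation of deviations 0.011), and with the replicate number as a block 3742 features were called higher and 4078 lower. Depth limits PAK5 and SYNDIG1, with 3 to 8 reads per WT library.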

Other observations

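Among non-coding features of chromosome 20, 3 of 55 tested long non-coding RNAs were called higher in DKO and 26 lower. Beside SNAP25-AS1 they were LINC01722 (150 and 127 reads in DKO, 96 and 106 in WT, log2 fold change 0.40 ± 0.15 (SE)) and LINC01524 (161 and 156 against 100 and 122, 0.46 ± 0.15). LINC01722 starts at 12865204, between JAG1 and ISM1, while LINC01524 lies on the long arm. The pseudogene ANKRD20A21P was called higher too (0.32 ± 0.11). LINC01722 and ANKRD20A21P lost their calls without DKO replicate 1, WT replicate 1 or WT replicate 2 (edgeR adjusted p of 0.0744 to 0.285), and LINC01524 without WT replicate 1 (0.198). The DESeq2 Wald test called none of these 3 (adjusted p of 0.0894 to 0.196). These features were chosen after their values were seen.

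Some protein-coding genes of chromosome 20 departed from its median without being called. PMEPA1, a gene induced by TGF-beta, had 186 and 195 reads in DKO and 144 and 158 in WT (log2 fold change 0.28 ± 0.13). GGT7 had 318 and 330 against 261 and 266 (0.25 ± 0.11), and it passed the edgeR threshold with DESeq2 size factors (adjusted p = 0.046), with upper quartile factors (0.0262) and under the filter of 50 reads in 2 libraries (0.0401). PMEPA1 passed with upper quartile factors (0.0421). PREX1 (0.09 ± 0.06), BFSP1 (0.03 ± 0.07) and ZNF217 (0.03 ± 0.05), each at over 20 CPM, were close to equal in the groups.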
